A study of Mus musculus with 2 samples.

Results

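The H3K27me3 regions that lay beside genes rather than on them were described in mouse rib chondrocytes. A region was taken as flanking when the deposited list named at least 1 gene within 5000 bp of it, when it overlapped none of the genes named for it, and when it lay more than 2500 bp from the 5′ end of each of them. By this rule 248 of the 2017 listed regions were flank regions, 12.3% of all, and they covered 328485 of 2654599 bp. They formed 264 pairs of a region and a gene and flanked 229 of the 922 genes that the list names. Of the other regions, 578 lay within 2500 bp of a 5′ end, 458 lay in a gene body further from the 5′ end, and 733 had no gene within 5000 bp.

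The cells were chondrocytes, the cells of cartilage, taken from the ribs of wild-type CD1 mice at postnatal day 2.5. Material of 11 mice was pooled, and the cells were cultured overnight in medium that the labels give as holding 5% FCS, then harvested from 2 dishes of 10 cm. Chromatin pulled down with an antibody against H3K27me3 gave 1 ChIP library, and a 2% sample of the chromatin without the antibody gave 1 input library. There were no replicates, so no test was made, and every interval below, unless another kind is named, is a 95% Clopper-Pearson interval that covers counting error only.

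H3K27me3 is a trimethylated lysine of histone H3 that is placed by the Polycomb repressive complex PRC2 and is read by PRC1 complexes through their CBX proteins. It marks silent chromatin and is best known at developmental genes that a cell type does not use, above all those for transcription factors. At such genes it often spreads from CpG-rich promoters into the surrounding DNA, and the Hox clusters are the textbook example of broad domains.

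None of the 16 symbols taken as chondrocyte markers was named in the list. Of the markers of other cell types, 2 of 5 for neurons were named and both were flanked, Neurog1 among them. For skeletal muscle 1 of 5 was named and it was not flanked, and for blood and endothelium 0 of 4 were named. The list holds chromatin regions and no RNA levels, so these counts do not measure how many cells of each type were present.

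Sequences are shown for the small RNAs and promoters that flank regions accompanied, because the windows of the regions themselves are in mm9 coordinates, for which no genome was used here. Both sequence sets come from RefSeq on GRCm38.p6, and no position was carried from one build to the other. In the mature microRNAs below, capitals mark the seed, bases 2 to 8. Mir9-1 and Mir9-3, at chr3:88215613-88215635 and chr7:79505279-79505301 on the plus strand for the 5p arm, encode the same mature 5p sequence and so the same seed. Mir10a and Mir196a-1 lie among the Hoxb genes, with their 5p arms at chr11:96317186-96317208 and chr11:96265187-96265208 on the plus strand. Mir124a-1 and Mir469 were also flanked.
miR-9-5p: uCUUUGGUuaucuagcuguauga
miR-9-3p: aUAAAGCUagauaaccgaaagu
miR-10a-5p: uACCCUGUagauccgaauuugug
miR-196a-5p: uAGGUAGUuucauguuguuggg

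Promoters are printed for 3 genes with many ChIP tags in their flank regions, from 250 bases before to 50 bases after the RefSeq start, with each CG in capitals. CG reads the same on both strands and cannot overlap itself. Evx2 and Foxd2 had no listed region within 2500 bp of the 5′ end, whereas a region of Neurog1 ran from −190 bp, counted from the 5′ end, into the gene. The windows held 16 CG in Evx2 (chr2:74659508-74659807, minus strand), 26 in Foxd2 (chr4:114908849-114909148, minus strand) and 32 in Neurog1 (chr13:56252131-56252430, minus strand). Of 27025 genes with a promoter in the RefSeq table, 44.4% had at least 10 CG in this window, and the median was 7. All 3 promoters were above this median of all genes. Evx2 lay below the median of 17 CG in the 668 listed genes with a matched promoter. These 3 picked promoters say nothing about flanked genes as a set. A comparison of CG content between sets of genes is void, since 162 of the 229 flanked genes (70.7%) had a promoter matched.
Evx2: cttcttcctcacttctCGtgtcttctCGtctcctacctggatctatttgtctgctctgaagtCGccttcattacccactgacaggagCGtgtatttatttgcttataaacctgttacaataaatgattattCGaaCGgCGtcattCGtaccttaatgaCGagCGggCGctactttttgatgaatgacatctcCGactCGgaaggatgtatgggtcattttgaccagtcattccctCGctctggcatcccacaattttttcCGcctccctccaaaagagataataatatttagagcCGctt
Foxd2: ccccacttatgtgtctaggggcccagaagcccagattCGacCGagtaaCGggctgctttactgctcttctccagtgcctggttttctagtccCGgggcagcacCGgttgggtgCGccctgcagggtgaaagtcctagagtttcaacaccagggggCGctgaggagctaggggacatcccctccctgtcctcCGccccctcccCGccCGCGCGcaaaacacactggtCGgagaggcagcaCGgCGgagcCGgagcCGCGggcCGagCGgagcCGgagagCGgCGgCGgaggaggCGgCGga
Neurog1: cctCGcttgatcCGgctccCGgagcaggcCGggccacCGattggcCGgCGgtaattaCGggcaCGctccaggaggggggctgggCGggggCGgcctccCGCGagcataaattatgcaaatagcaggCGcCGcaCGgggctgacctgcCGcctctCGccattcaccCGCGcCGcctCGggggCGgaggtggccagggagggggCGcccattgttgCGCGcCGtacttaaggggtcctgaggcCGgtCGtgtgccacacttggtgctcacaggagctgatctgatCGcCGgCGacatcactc

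Flank regions were of ordinary size and strength for the list. Their median length was 1074 bp, with quartiles of 685 and 1627 bp and a range from 336 to 6311 bp, against a median of 1066 bp over all regions. The median count was 57 ChIP tags, where a tag is a mapped read, with quartiles of 39 and 85 and a range from 20 to 424, and the median input count was 7. Regions at 5′ ends had a median of 65 ChIP tags, those in gene bodies 53.5 and intergenic ones 53. Per kb, the median was 54.5 ChIP tags in flank regions and 54.5 in all regions. Pooled over the 248 flank regions, the ratio of ChIP to input tags was 7.62 (7.30 to 7.96) before any scaling for sequencing depth. It was 7.71 (7.51 to 7.93) at 5′ ends, 7.64 (7.39 to 7.90) in gene bodies and 7.12 (6.95 to 7.30) in intergenic regions. The interval of the flank regions overlapped those of the 5′ ends and gene bodies and just met that of the intergenic regions.

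High regions made up a smaller share of the flanks than of the list, and long regions a share near that of the list. A height of the smoothed ChIP profile of at least 10 was reached by 21 flank regions (8.47%, 5.32 to 12.7) against 13.1% of all regions, 16.1% of those at 5′ ends, 10.9% in gene bodies and 13.6% of intergenic ones. The interval of the flanks overlapped those of the gene bodies (8.21 to 14.1), intergenic regions (11.2 to 16.3) and all regions (11.6 to 14.6). It lay below that of the 5′ ends (13.2 to 19.3). By side, 6 upstream flanks (5.13%, 1.90 to 10.8) and 14 downstream flanks (11.7%, 6.53 to 18.8) reached this height. A length of at least 2000 bp was found in 35 flank regions (14.1%), against 16.5% of all regions, 22.5% at 5′ ends, 12.4% in gene bodies and 15% between genes. The median height was 8.72 in flank regions and 8.68 in all, where the lowest height listed was just over 8. Input lay below 9.21 tags per kb, the floor that the deposited enrichment ratio uses, in 187 flank regions (75.4%) against 76.9% of all, so the background under the flanks was close to that under the whole list. No input tag was counted in 15 flank regions.

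**Figure D1:**
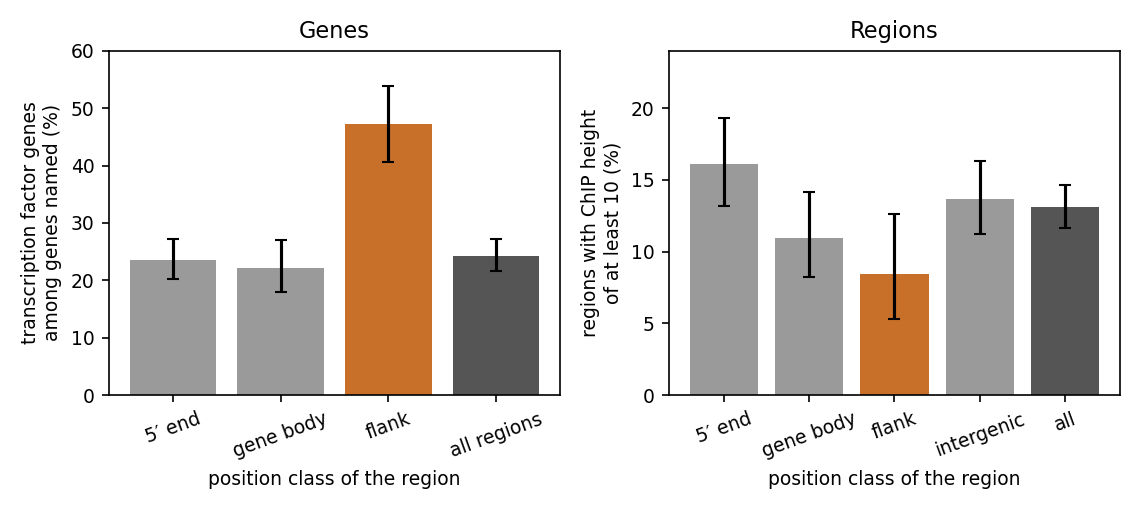
Bars give, on the left, the percentage of transcription factor genes among the genes named for each position class of region and, on the right, the percentage of regions whose ChIP height reached 10, both with 95% Clopper-Pearson intervals. The flank class stands at 47.2% on the left, above the 24.3% of all genes. On the right it stands at 8.47%, below the 13.1% of all regions, with intervals that overlap.

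Both sides of genes were represented. Regions upstream of the 5′ end numbered 117 (47.2%, 40.8 to 53.6), regions downstream of the 3′ end 120 (48.4%), and 11 more were upstream of 1 gene and downstream of another. The rule leaves out the nearest 2500 bp on the upstream side, so the sides are comparable only further out. Between 2500 and 5000 bp from the gene there were 131 upstream pairs and 68 downstream pairs, a share of 65.8% upstream (58.8 to 72.4). From 2500 bp outwards the upstream counts per 500 bp were 31, 29, 25, 25 and 21. On the downstream side the counts per 500 bp from the 3′ end ranged from 9 to 19 with no steady fall. Upstream regions began at a median of 3568 bp from the 5′ end, and downstream regions at a median of 2556 bp from the 3′ end, with 29 pairs within 1000 bp of it.

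**Figure D2:**
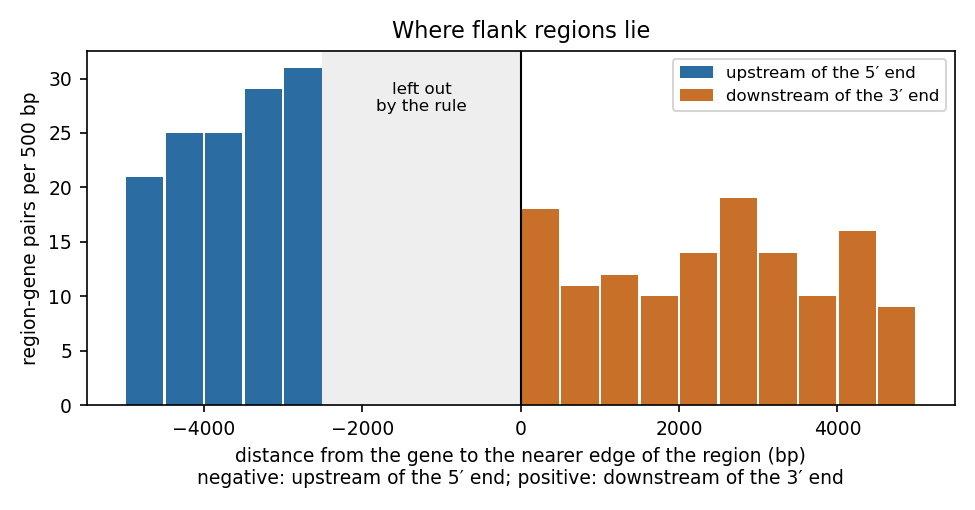
Columns count pairs of a flank region and a gene per 500 bp of distance between the gene and the nearer edge of the region. Counts fall from 31 to 21 going outwards on the upstream side and stay between 9 and 19 on the downstream side.

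Genes with a downstream flank region varied widely in length. The 119 genes with a downstream flank region had a median length of 4515 bp, with a range from 73 to 576462 bp, and 26 were at most 2500 bp long. Among them the 56 transcription factor genes had a median length of 3613.5 bp and the other 63 a median of 6646 bp. The pooled ratio of ChIP to input tags was 7.92 (7.43 to 8.44) upstream and 7.44 (7.0 to 7.92) downstream. Without the region beside Rn4.5s, which held 142 input tags, the downstream ratio was 8.07 (7.56 to 8.62), so the order of the sides rests on that region.

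Counts at the limit of 2500 bp are given for the nearest regions on either side of it. Just inside were the regions of Rfx4 at 2513 bp with 66 ChIP and 8 input tags, of Pth2 and Slc17a7 at 2552 bp with 73 and 14, and of Pkp1 at 2556 bp with 61 and 6. Just outside were those of Fbxw8 at 2499 bp with 37 and 0, of Dlx1 and its neighbours at 2471 bp with 51 and 8, and of Rnf187 at 2462 bp with 73 and 8.

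Transcription factor genes, recognised from their symbols, made up 108 of the 229 flanked genes (47.2%, 40.6 to 53.8) against 224 of the 922 genes of the list (24.3%, 21.6 to 27.2). Among genes named for a region at a 5′ end the share was 139 of 591 (23.5%). Among genes named for a gene body region it was 76 of 342 (22.2%). The first count takes in every gene named for such a region, also genes whose own 5′ end lay further off. Among genes with a region within 2500 bp of their own 5′ end the share was 133 of 517 (25.7%). Homeobox genes were 61 of the flanked genes (26.6%) against 13.7% of all, and other transcription factors 47 (20.5%) against 10.6%. Genes are not independent observations, since neighbours share domains, and no test of these shares was made. Without the flank regions of Hox and Evx genes the share of transcription factor genes was 44.9%. The 24.3% of the list still holds the Hox and Evx genes, so these shares are over unlike sets.

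**Figure D3:**
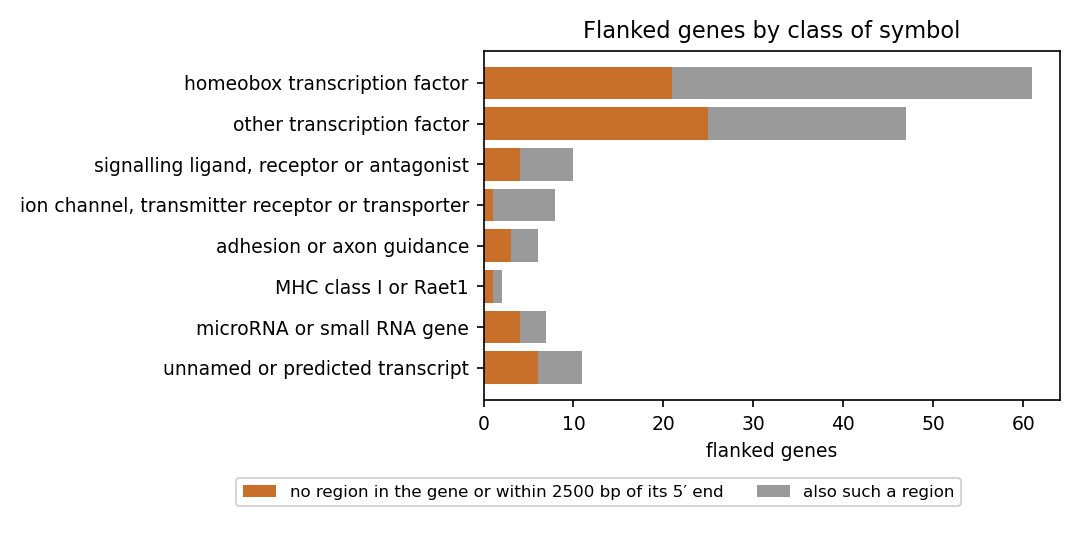
Bars count the flanked genes in each class of symbol, split by whether a region also overlapped the gene or lay within 2500 bp of its 5′ end. The 77 flanked genes of no class are not drawn, and homeobox genes form the longest bar with 61.

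Some posterior Hox genes had long flank regions with many tags and a density per kb near the median. Hoxc11, which patterns the hind part of the body axis, had 347 ChIP and 37 input tags in a region of 6311 bp at chr15:102774227-102780538, a ratio of 9.38 (6.67 to 13.5), beginning 4419 bp upstream. Hoxa13, needed for digits and the urogenital tract, had 290 and 32 tags at chr6:52215116-52220446, 4242 bp upstream, with a ratio of 9.06 (6.28 to 13.5). Both regions were several times the median in length and in tags. A further region downstream of Hoxa13, which the list also names for the antisense transcript Hoxa11as, held 174 and 15 tags. Hoxb13 had 149 and 13 tags in a region 2276 bp downstream and 44 and 5 tags in another at 4849 bp. The posterior genes Hoxc13, Hoxd11 and Hoxd13 had shorter flank regions, of 1365, 1403 and 955 bp, with 83, 82 and 51 ChIP tags. In all, 10 of the 25 listed Hox genes were flanked, by 14 regions, where 24.8% of all listed genes were flanked. Of the 10 genes, 3 had no region in the gene or within 2500 bp of its 5′ end. At the other end of a cluster, the anterior gene Hoxd1 had 38 ChIP tags against 1 input tag, a ratio of 38 with a wide interval from 6.42 to 1540. Its 75.2 ChIP tags per kb were exceeded among flank regions by the Rn4.5s region alone.

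Other homeobox families followed. All 7 listed Nkx genes were flanked, by 9 regions, as were 4 of 8 Lhx genes and 9 of 13 genes of the forkhead (Fox) family, whose members carry another DNA-binding domain. Lhx1, a regulator of kidney and head formation, had 179 ChIP and 15 input tags 3562 bp upstream, a ratio of 11.9 (7.04 to 21.8). En2, which acts at the midbrain-hindbrain boundary, had 199 and 39 tags 2926 bp upstream, a ratio of 5.10 (3.61 to 7.39). The intervals of Lhx1 and En2 overlapped at their edges. Nkx2-3 held 105 and 17 tags, and the heart regulator Nkx2-5 held 36 ChIP tags and no input tag. Of the Pax genes 1 of 9 was flanked, Pax4 with 70 and 13 tags, and of the Sox genes 1 of 5, Sox14 with 50 and 0, where 24.8% of all listed genes were flanked.

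The flanked forkhead genes had regions on either side, whereas the T-box pairs were all upstream. Foxd2 had 201 ChIP and 32 input tags in a region at chr4:114570480-114574995, 3890 bp downstream, a ratio of 6.28 (4.31 to 9.43). That gene had no other region, and the nearest listed region lay 148445 bp from this one. Foxf2 had 110 and 14 tags, Foxa1, a regulator of endoderm, 81 and 11, and Foxl2, a regulator of the ovary, 26 and 0. Tbx5, which specifies the forelimb, had 108 and 6 tags 3273 bp upstream, a ratio of 18.0 (8.01 to 50.1). Its hindlimb counterpart Tbx4 had 41 and 4 tags in the region 4916 bp upstream and 44 and 5 in the region 3907 bp upstream. Of 9 listed T-box genes 6 were flanked, where 24.8% of all listed genes were flanked.

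Prdm12, a zinc finger gene of pain-sensing neurons, had 291 ChIP and 48 input tags at chr2:31487200-31492486, 3071 bp upstream, with a ratio of 6.06 (4.46 to 8.41). Several limb and skeletal regulators were also flanked, and they are named after their values were seen. Shox2, which shapes the proximal limb, had 62 ChIP tags and no input tag, Msx2 had 96 and 12, and Six2 had 107 and 11. Among these 3 genes the input count ranged from 0 to 12.

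**Figure D4:**
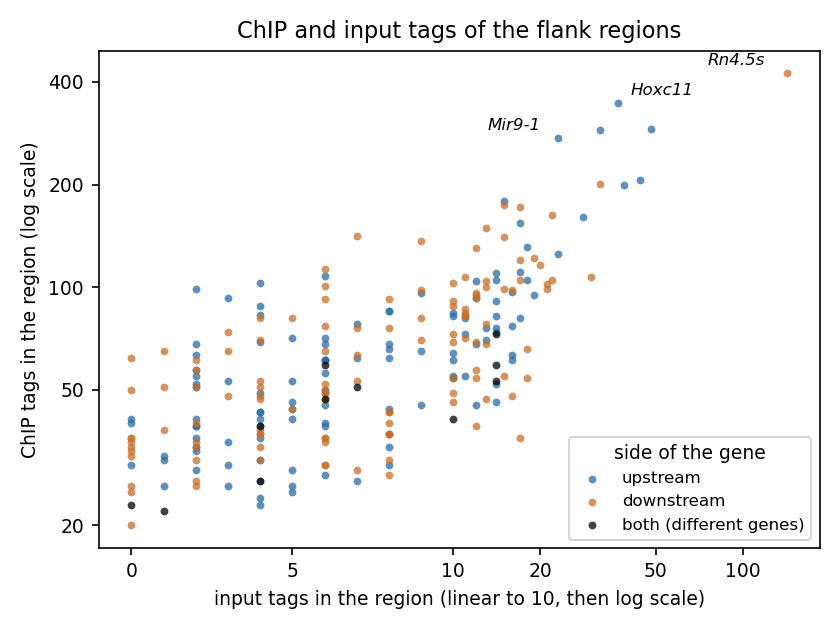
Points are the 248 flank regions, with input tags on the x axis (linear to 10, then logarithmic) and ChIP tags on the y axis (logarithmic), coloured by the side of the gene. Most lie near the medians of 7 input and 57 ChIP tags, and the Rn4.5s region stands at the far right with 142 input tags.

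In 18 genes flank regions lay on both sides, and 11 of these fell in the classes of transcription factors by symbol, which miss the ETS factor Fev. Neurog1, which starts the making of sensory neurons, had 154 ChIP and 17 input tags from −5848 to −2870 bp, counted from its 5′ end. Behind the gene it had 130 and 12 tags between 3833 and 6100 bp after the 5′ end and 104 and 13 tags between 6512 and 8311 bp. Between them lay a shorter region over the start of the gene, with 67 and 8 tags. Hoxc11, with 499 and 50 tags over its flank regions, and Evx2 were the other genes with at least 3 flank regions.

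In 6 of the 18 genes no region lay between the flanks, among them Mir9-1, Evx2, Mir469, Olig2 and Fev. Evx2, a homeobox gene beside Hoxd13, is 3803 bp long and had 51 and 2 tags from −4703 to −3748 bp, counted from its 5′ end, a region the list also names for Hoxd13. Downstream it had 70 and 4 tags between 4121 and 5363 bp and 92 and 8 tags between 7077 and 9244 bp after the 5′ end. The pooled ratio of its flanks was 15.2 (8.87 to 28.3). Olig2, a gene of oligodendrocytes and motor neurons, had 31 and 4 tags upstream and 71 and 11 downstream, and Fev, a gene of serotonin neurons, 22 and 1 and 31 and 2. The list holds only signal above its height limit, so weaker signal over these genes cannot be told from none.

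**Figure D5:**
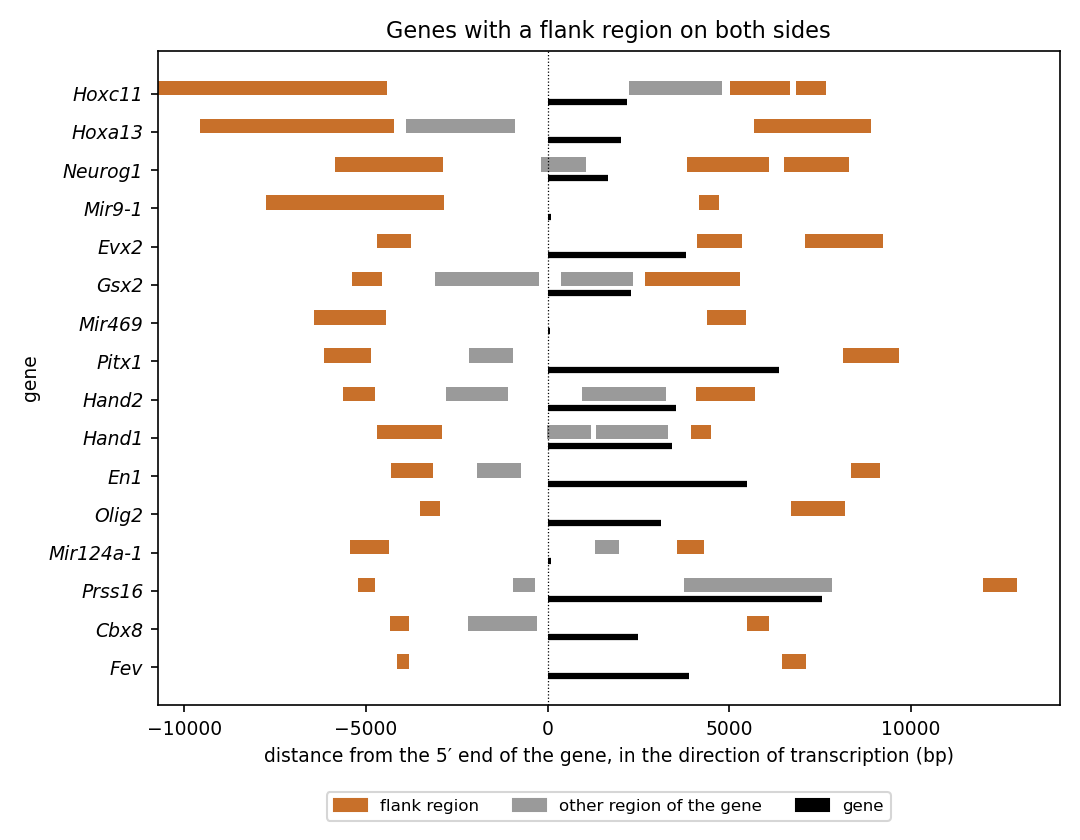
Bars show, for 16 genes under 20000 bp long with flank regions on both sides, the flank regions, the other listed regions of the gene and the gene itself, in bp from the 5′ end in the direction of transcription. Evx2, Olig2, Fev, Mir9-1 and Mir469 have flank regions alone, with no region over the gene.

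Many flanked genes had no region in the gene or near its 5′ end. No region overlapped the gene in 136 of the 229 flanked genes (59.4%), and in 105 (45.9%) there was also none within 2500 bp of the 5′ end. By the second measure the genes without such a region were 58 of 110 (52.7%) flanked upstream alone and 41 of 101 (40.6%) flanked downstream alone. They were 46 of 108 transcription factor genes (42.6%) and 59 of the other 121 genes (48.8%).

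MicroRNA and small RNA genes were 7 of the flanked genes (3.06%) against 1.74% of all. Mir9-1, whose product restrains neural progenitor genes, had 273 ChIP and 23 input tags at chr3:88011756-88016670, 2850 bp upstream, a ratio of 11.9 (7.75 to 19.0), and 34 and 4 tags downstream. Mir9-3, with the same mature 5p sequence printed above, had 159 and 23 tags over 2 downstream regions and a pooled ratio of 6.91. Mir469 had 105 and 14 tags upstream and 55 and 15 downstream. Mir10a shared a region of 30 and 3 tags with Hoxb4, and Mir196a-1 one of 39 and 4 tags with Hoxb9. The seeds of these last 2 microRNAs differ from each other and from that of miR-9-5p.

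Signalling genes were 10 of the flanked genes (4.37%), near their share of all genes (4.99%). Of the ligands, Ihh, the hedgehog signal of maturing chondrocytes, had 63 ChIP and 16 input tags 4579 bp upstream, a ratio of 3.94 (2.25 to 7.30), and no other region. Wnt3a had 40 ChIP tags and no input tag, and the bone morphogenetic protein gene Bmp8b had 39 and 4. Wnt1 had 54 and 18 tags in a region 267 bp behind the gene, a ratio of 3.0 (1.73 to 5.44), with one of the highest input densities among the flanks at 19.2 tags per kb. Of the receptors, Fzd10, a Wnt receptor, had 73 and 10 tags 2497 bp downstream, and Gfra2, the neurturin receptor, had 93 and 3, a ratio of 31.0 (10.3 to 153). Frat1, an inhibitor of the kinase GSK3 in Wnt signalling, had 137 and 9 tags 2360 bp downstream, a ratio of 15.2 (7.79 to 34.0). None of the 5 listed Fgf genes and none of the 3 listed Dll genes was flanked, numbers too small to set against the 24.8% of all listed genes.

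Genes of ion channels, transmitter receptors and transporters were 8 of the flanked genes (3.49%) against 7.16% of all. The potassium channel gene Kcna1 had 91 and 14 tags, the kainate receptor gene Grik3 had 85 and 8 tags 4353 bp upstream, and the sodium-proton exchanger gene Slc9a2 had 68 and 6. Adhesion and guidance genes were 6 (2.62%) against 2.28%. The cadherin gene Cdh22, which is 123230 bp long, had 104 and 12 tags upstream and 63 and 7 downstream with 8 regions in its body between them. The guidance cue gene Ntn1 had 74 and 14 tags. Genes for the histone mark's own readers, Cbx2 and Cbx8 of PRC1, were both flanked and shared a region of 31 and 8 tags. Its ratio was 3.875 (1.74 to 9.76), and its height of 8.06 was near the lowest of the list. Cbx8 had a second one of 36 and 2 tags on its upstream side.

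A few flanks accompanied genes of other kinds. Bub1, a kinase of the spindle checkpoint, had 161 and 28 tags 4582 bp upstream, a ratio of 5.75 (3.83 to 8.92). Ttll6, which modifies tubulin, had 173 and 22 tags in regions behind it, and the next gene on that side in the RefSeq order was Hoxb13. Flank regions were split by whether their own gene had a region in it or within 2500 bp of its 5′ end. Where it had none, the neighbouring protein-coding gene on the side of the flank region had such a region in 8 of 70 (11.4%). Where the own gene had one, this was so in 18 of 83 (21.7%). Regions are counted, so a gene can enter more than once. Both regions of Ttll6 are among the 8, and both of 1700106N22Rik, Nkx2-9 and Tbx4 are among the 18. By side the counts were 1 of 37 against 7 of 37 upstream, and 7 of 33 (21.2%) against 11 of 46 (23.9%) downstream, so the shares lay close together downstream.

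The flank region with the most tags lay beside Rn4.5s, a small rodent RNA whose gene is repeated in tandem. At chr6:47596622-47600708 it held 424 ChIP and 142 input tags, with a ratio of 2.99 (2.46 to 3.64) and a height of 23.7, the greatest of all flank regions. Its input of 34.8 tags per kb was far above the median, and the next listed region lay 979776 bp away. Repeated copies share reads, so the count of this region is uncertain. The region of 5031410I06Rik, with 36 and 17 tags and a ratio of 2.12 (1.16 to 4.02), also had high input at 25.8 tags per kb.

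The distance from flank regions to their listed neighbours overlapped that of regions at 5′ ends. The median gap to the nearest other region was 3195.5 bp (2530 to 4812 from the ranks of the values, as a 95% binomial interval of the median), against 5060 bp over all regions, 4665 bp (3436 to 6975) for those at 5′ ends, 6566 bp in gene bodies and 5302 bp between genes. A neighbour within 3000 bp was found for 119 (48.0%, 41.6 to 54.4), against 41.1% of all regions and 42.7% of those at 5′ ends. To the nearest region that was not itself a flank, the median gap was 4283.5 bp. The nearest region was one at a 5′ end for 102 flank regions, intergenic for 66, another flank for 41 and in a gene body for 39. When regions within 3000 bp of each other were joined into runs, 129 flank regions stood alone, and 79 (31.9%) shared a run with a region in or at the 5′ end of the same gene. At the other extreme, 54 flank regions had no other region within 50000 bp.

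Neighbours lay more often on the side of the gene. For 158 flank regions with 1 gene of known strand, the nearest other region was on the gene's side in 96 (60.8%, 52.7 to 68.4). Within the regions themselves no such lean was seen, since the highest point was in the part nearer the gene in 73 of 158 (46.2%, 38.2 to 54.3).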

How the data were processed

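H3K27me3 was measured by ChIP-seq in 1 ChIP library and 1 input library of pooled wild-type rib chondrocytes. The authors mapped the reads to mm9 with the DNAnexus mapper and called regions against input with QuEST, whose versions and settings are not given in the sources used here. The deposited list gives whole-number counts of ChIP and input tags per region, without normalization. In the deposited fold (tag ratio), ChIP tags are divided by input tags, and input under 9.21 tags per kb is raised to that floor, as the values show. The height is a deposited signal, namely the peak of the smoothed tag profile inside the region. QuEST q-values were deposited as −log10 and were not used as a test here. Whether positions count from 0 or 1 is not stated.

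Distances were taken from the nearer edge of a region. In 48 of 48 genes with several upstream regions they gave the same 5′ end. A region was upstream where its distances to the gene and to the 5′ end were equal, and downstream otherwise. Symbols matched RefSeq (GRCm38.p6) for 226 of 229 flanked genes, and 162 had a strand. Genes were classed by patterns in their symbols.

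With no replicates, no test was made. Shares and ratios of ChIP to input tags carry 95% Clopper-Pearson intervals, which treat tags, regions or genes as independent, and cover counting error only. Library totals cannot be read from the list, so ratios are not scaled for depth, and a median of 57 ChIP tags per flank region sets the precision. The counting was tested on simulated data.

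The members and gene lists were chosen with earlier results of these data known. Regions named in the text are the 10 with the most ChIP tags, the 10 with the most per kb, the 3 with the most input per kb, those at the limit of 2500 bp, those of genes with at least 3 flank regions, regions named for several genes, the 4 leading genes per class and the members of fixed families (Wnt, Fzd, Bmp, Fgf, Dll, Hox, Pax, Lhx, Fox, Tbx, Sox, Nkx). Any other gene is named after its values were seen, among them Olig2, Fev and Cbx2. Some genes that these rules select are not reported here. Alternatives were a minimum ChIP height of 10, only regions with input under 2 times the floor, a limit of 4000 bp, input set to the floor, regions near the 5′ end also counted, only regions named for 1 gene, flank regions within 3000 bp merged, and gaps to regions that are not flanks. Leaving out Rn4.5s, or the Hox and Evx genes, was chosen after seeing the data. Calculations ran in Python 3.11.15 with pandas 2.3.3, numpy 2.4.6 and scipy 1.17.1, and plots were drawn with matplotlib 3.10.9.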

Additional observations from a re-analysis of the deposited data

How the results depend on the processing

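Of 55 recomputed values 39 moved by less than their interval or by less than 1.5 times, and 16 moved more. Some of these outcomes follow from the setting itself, so the tally does not measure robustness. Merging regions leaves the pooled ratio unchanged, and a height limit raises the median height. With a ChIP height of at least 10, 21 flank regions and 20 flanked genes were left, and 28.6% of the regions were upstream. The pooled ratio of ChIP to input tags was 6.11, and the medians were 59.3 ChIP tags per kb and a height of 10.4. No region overlapped 18 of the genes (90.0%), and 55.0% of the genes were transcription factor genes. The height limit was applied to the whole list, which left 264 of 2017 regions. Lower regions over a gene were then no longer counted, so the 90.0% cannot be set against the 59.4% without the limit. With input below 2 times the floor the pooled ratio was 8.01, and with the input of each region set to at least the floor it was 5.34. With the limit moved out to 4000 bp there were 151 regions and 137 genes, 27.8% of the regions were upstream, and 78 genes had no overlapping region. That limit leaves only 4000 to 5000 bp on the upstream side, which by itself lowers the upstream share. When regions near the 5′ end, up to 2500 bp away, were also counted, 105 genes (45.9%) had neither such a region nor an overlapping one. Chosen after seeing the data, leaving out Rn4.5s gave a pooled ratio of 7.92, and leaving out the Hox and Evx genes gave 231 regions, 47.6% of them upstream. No paired analysis was possible because the ChIP and input groups hold 1 library each, and for the same reason no replicate could be left out. The number of tags per region limits every ratio, and neither variation between mice nor between libraries can be estimated.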
